A study of Homo sapiens with 24 samples.

Results

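Interferon-stimulated genes are the genes that cells switch on after interferon binds its receptors. This section follows 47 of them, chosen by name, and all 47 were present among the 25680 genes of each expression table. RNA was sequenced (polyA RNA, paired reads) from 3 human acute myeloid leukaemia cell lines in 24 libraries, forming 8 groups of 3 libraries each. In MV411 the groups were MI-503 at 2.5 µM for 3 days, AC220 at 3 nM for 24 hours, both drugs together at those doses and times (the combination), and the solvent DMSO. In MOLM13 the groups were MI-503 at 2.5 µM for 4 days and DMSO, and OCI-AML3 had the same pair of groups with the same dose and time. MI-503 blocks the binding of menin to MLL (KMT2A), and AC220 (quizartinib) inhibits the receptor tyrosine kinase FLT3. MV411 and MOLM13 carry an MLL fusion and an internal tandem duplication of FLT3, whereas OCI-AML3 has intact MLL and a mutant NPM1 gene. Each line stands for 1 patient's leukaemia grown in culture, and MI-503 was given 1 day less in MV411 than in the other lines, so line and treatment time cannot be told apart.

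Type I interferons bind a receptor whose kinases JAK1 and TYK2 phosphorylate STAT proteins. STAT2 then acts with IRF9 in a complex that binds interferon response elements in promoters, while IRF1 and IRF7 bind closely related sequences. The induced proteins include sensors of viral RNA, proteins that bind foreign RNA or block viral entry, enzymes that degrade RNA, and ISG15, a ubiquitin-like protein that is attached to other proteins. In myeloid leukaemia cells such genes are often transcribed at some level without added interferon, and the labels here mention no added interferon.

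Of the 47 genes, 37 had a promoter in the RefSeq table for GRCh38.p14, covering 250 bases before to 50 bases after the start of the gene. The core of the interferon response element, GAAA, any pair of bases and GAAA again, was searched on both strands, overlapping matches included. It was found in 23 of the 37 promoters (62.2%), against 1195 of all 27305 genes with a promoter (4.38%). The other core searched, TTCNNNGAA, which STAT proteins bind, was found in 10 of the 37 (27%) and in 2560 of all genes (9.38%). The stretches below belong to genes that the results turn on, with each match of the first core in capitals; it reads TTTC first where it lies on the other strand. In IFIT5, 1 more match begins 4 bases before the start of the gene and runs past the stretch, so its first bases stand in lower case at the end. The list has IFIT1 (chr10:89392488-89392547, + strand), IFIT3 (chr10:89327831-89327894, +), IFIT5 (chr10:89414508-89414567, +), ISG15 (chr1:1013362-1013421, +), IFI44L (chr1:78620274-78620393, +) and IFIH1 (chr2:162318686-162318853, − strand), all upstream of the gene's start.
IFIT1: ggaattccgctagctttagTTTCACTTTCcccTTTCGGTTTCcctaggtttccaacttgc
IFIT3: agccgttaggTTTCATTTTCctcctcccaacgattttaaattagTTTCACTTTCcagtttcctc
IFIT5: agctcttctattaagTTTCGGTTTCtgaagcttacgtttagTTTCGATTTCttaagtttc
ISG15: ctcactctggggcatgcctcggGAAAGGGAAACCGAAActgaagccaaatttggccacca
IFI44L: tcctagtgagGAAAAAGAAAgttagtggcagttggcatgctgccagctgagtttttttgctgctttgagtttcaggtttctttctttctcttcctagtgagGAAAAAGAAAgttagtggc
IFIH1: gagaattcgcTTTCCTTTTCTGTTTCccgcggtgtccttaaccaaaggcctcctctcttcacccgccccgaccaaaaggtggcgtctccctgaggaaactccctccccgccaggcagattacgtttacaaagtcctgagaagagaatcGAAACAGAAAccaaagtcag
IFIT2, IFIT3, IFIT1 and IFIT5 lie in that order on chromosome 10 of GRCh38.p14, from position 89302046, where IFIT2 begins, to 89420997, where IFIT5 ends. The 6 genes shown share the response element, yet they did not move alike, as the values below show.

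Values are normalised read counts, meaning reads per gene after each table was rescaled so that the median gene did not differ between its libraries. Reads assigned to genes ran from 23168887 to 26596469 per library in MV411, 23281330 to 27240357 in MOLM13 and 44364964 to 72994481 in OCI-AML3. A change is a log2 fold change on the log2(value + 1) scale with its standard error, tested with limma, and a gene is called where the p adjusted over all genes of the table is under 0.05. The drugs moved most genes, so the share of all genes called is given beside each count of interferon genes. As a check of the drugs, MEIS1, a menin-dependent gene, fell by 2.31 on the log2 scale with MI-503 in MV411, by 1.65 in MOLM13 and by 2.62 in OCI-AML3. DUSP6, a read-out of ERK signalling below FLT3, fell by 5.26 with AC220. Of the defining markers of other cells, CD3E had 0 to 2 reads per group, MS4A1 0 to 3, EPCAM 0 to 1 and KRT19 0 to 5, while the myeloid markers CD33 and SPI1 had at least 3476 and 3595 reads in each group. In the MOLM13 and OCI-AML3 tables the submitters' own scaling differs from the median of genes: on it the median gene fell by 0.541 with MI-503 in MOLM13 and by 0.161 in OCI-AML3, so every change in those lines is given relative to that shift. A spike-in was added to every sample before extraction, and whether the submitters' factors come from it is not given in the sources used here. Fewer cells of a kind and less RNA per cell cannot be told apart in these bulk samples.

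With DMSO alone the 3 lines differed in which interferon genes they used, here in RPM (a gene's reads over all assigned reads of the library, on a fixed scale) and gene by gene. OCI-AML3 had the highest mean for 19 genes, MV411 for 17 and MOLM13 for 11, and the top line's 3 libraries lay apart from the next line's for 15, 15 and 9 of these. MOLM13 alone was lowest for 27 of the 47, and GBP1 had 0 reads in both MOLM13 and MV411. Such counts were not made over all genes, so whether they are particular to this list was not tested. IFIT2, whose protein binds viral RNA, had a mean of 14.99 RPM in MV411, 1.58 in OCI-AML3 and 1.47 in MOLM13, and the libraries of OCI-AML3 and MOLM13 overlapped. IFITM1, which restricts viral entry at the cell surface, stood at 43.5 in MV411, 3.66 in MOLM13 and 0.529 in OCI-AML3. OASL, a relative of the oligoadenylate synthetases, stood at 5.26 in MV411, 1.09 in OCI-AML3 and 0.0764 in MOLM13. MX2, which restricts viruses at the nuclear pore, stood at 79.3 in OCI-AML3, 20.9 in MV411 and 2.95 in MOLM13. IFI16, a sensor of DNA, showed 139 in OCI-AML3, 28.4 in MOLM13 and 19.6 in MV411. The tables were scaled apart, so these levels are a description with no test between lines.

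In MV411, MI-503 split the list, AC220 raised most of it, and each of the 3 treatments brought IFIT2 and IFIT3 down. With MI-503, 19 of 44 tested genes rose and 17 fell, a called share of 81.8% against 60.6% of all genes (29.8% higher and 30.8% lower). With AC220, 29 rose and 9 fell, or 86.4% against 74.9% of all genes (37.7% higher and 37.3% lower). With the combination 25 rose and 9 fell, or 77.3% against 79.4% of all genes (39.3% higher and 40.1% lower). The median log2 change over the list was 0.05 with MI-503, 0.44 with AC220 and 0.42 with the combination, and over all genes it was −0.01, 0.01 and 0.00 in the same order. These 3 comparisons share the DMSO libraries. IFI27, IFI44L and GBP1 had too few reads in MV411 to be tested, and IFIT1 and IFIT5 passed the filter on low values only through the DMSO group, where they are high. A fall of those genes against DMSO was selected for, so it is given as a description, and without them the counts of lower genes are 15, 7 and 7.

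**Figure D1:**
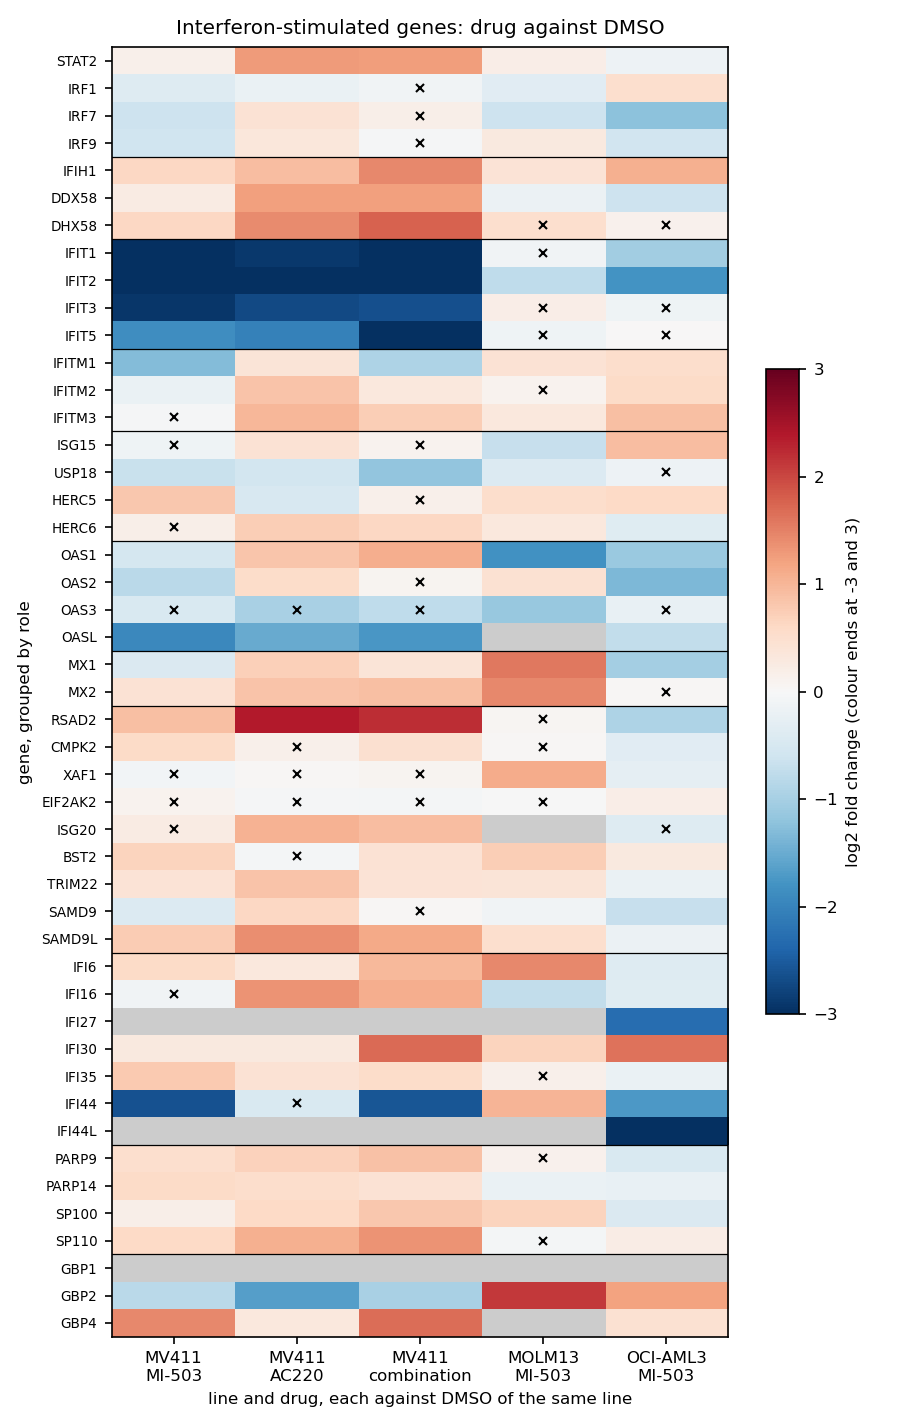
Log2 fold change of the 47 genes against DMSO of the same line, in columns by line and drug and in rows by role. Red is higher and blue lower with the drug, a cross marks a gene that did not pass, grey marks a gene that was not tested. The IFIT rows are deep blue in the 3 MV411 columns and pale in MOLM13.

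The transcription factors of the pathway separated the drugs. STAT2 had 3481, 3451 and 3617 counts with MI-503, 7569, 7752 and 7711 with AC220, 7877, 7544 and 7417 with the combination, and 3151, 3343 and 3035 with DMSO. AC220 and the combination thus stood apart from the other groups, with changes of 1.27 ± 0.04 and 1.26 ± 0.04 against DMSO, while MI-503 gave 0.15 ± 0.04. IRF9, the partner of STAT2, had 708, 705 and 748 counts with MI-503, 1478, 1394 and 1296 with AC220, 1140, 1092 and 960 with the combination, and 1133, 1089 and 1048 with DMSO. It fell with MI-503 (−0.60 ± 0.06), rose with AC220 (0.35 ± 0.06) and did not pass with the combination (−0.04 ± 0.06, adjusted p = 0.591). IRF9 shares 43.8% of its 50-base stretches with other transcripts, so part of its reads may be assigned with uncertainty. IRF7, the factor that amplifies interferon transcription, followed the same order, with −0.62 ± 0.11 with MI-503, 0.44 ± 0.11 with AC220 and 0.18 ± 0.11 with the combination, the last not passing. IRF1 fell with MI-503 (−0.39 ± 0.05) and with AC220 (−0.19 ± 0.05). Given together, the drugs left it at −0.09 ± 0.05, which did not pass.

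The 3 RNA sensors rose with every treatment in MV411. IFIH1 (MDA5), which detects long double-stranded RNA, had 239, 237 and 260 counts with MI-503, 292, 281 and 337 with AC220, 431, 409 and 449 with the combination, and 151, 159 and 163 with DMSO. No treated library overlapped with DMSO, and the combination lay above either drug, with changes of 0.63 ± 0.09, 0.93 ± 0.09 and 1.44 ± 0.09 in the same order. DHX58 (LGP2), a regulator of the other sensors, rose by 0.61 ± 0.13 with MI-503, 1.42 ± 0.13 with AC220 and 1.77 ± 0.13 with the combination. DDX58 (RIG-I), which detects RNA with a triphosphate end, rose by 1.23 ± 0.08 with AC220 and 1.22 ± 0.08 with the combination. Its rise with MI-503 was 0.25 ± 0.08, and the call was lost without DMSO replicate 2 (0.193, adjusted p = 0.0546) or MI-503 replicate 3 (0.185, adjusted p = 0.0686).

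The IFIT family, whose proteins bind viral RNA and block its translation, went the other way. IFIT2 had 9.02, 13.6 and 11.7 counts with MI-503, 30.7, 27.9 and 33.8 with AC220, 27.1, 17.3 and 16.4 with the combination, and 457, 294 and 394 with DMSO. IFIT3 had 20.1, 23.4 and 30.2 counts with MI-503, 24.0, 32.8 and 28.2 with AC220, 35.0, 28.5 and 25.6 with the combination, and 231, 152 and 192 with DMSO. In either gene the 9 treated libraries lay far below the 3 DMSO libraries, which themselves spread widely, and DMSO replicate 1 was the highest of them. IFIT2 changed by −4.94 ± 0.21 with MI-503, −3.57 ± 0.21 with AC220 and −4.18 ± 0.21 with the combination. The corresponding changes of IFIT3 were −2.91 ± 0.20, −2.71 ± 0.20 and −2.64 ± 0.20. IFIT1 had 8 reads over the MI-503 group, 21 over AC220, 11 over the combination and 176 over DMSO. From those reads it was 21.9-fold lower with MI-503 (95% interval 10.9 to 51.4), 8.50-fold lower with AC220 (5.39 to 14.1) and 14.8-fold lower with the combination (8.08 to 30.2), intervals that cover counting error only. IFIT5, the scarcest of the family, had 9, 8 and 2 reads with MI-503, AC220 and the combination against 39 with DMSO. As said above, no test is read from these falls of IFIT1 and IFIT5.

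OASL shared this pattern, with 41.1, 36.0 and 26.3 counts with MI-503, 45.1, 61.7 and 35.7 with AC220, 49.6, 38.7 and 30.8 with the combination, and 136, 118 and 148 with DMSO. The falls were −1.95 ± 0.21, −1.51 ± 0.21 and −1.75 ± 0.21. GBP2, a guanylate-binding GTPase better known as a target of interferon gamma, also fell with each treatment (−0.81 ± 0.08 with MI-503, −1.65 ± 0.08 with AC220 and −0.98 ± 0.08 with the combination). IFI44 fell with MI-503 (−2.61 ± 0.43) and with the combination (−2.56 ± 0.43), whereas its −0.46 ± 0.43 with AC220 did not pass. Its neighbour IFI44L, untested here, had 2 reads with MI-503, 48 with AC220, 3 with the combination and 21 with DMSO. That is 2.25-fold more with AC220 than with DMSO (95% interval 1.32 to 3.96, counting error only).

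**Figure D2:**
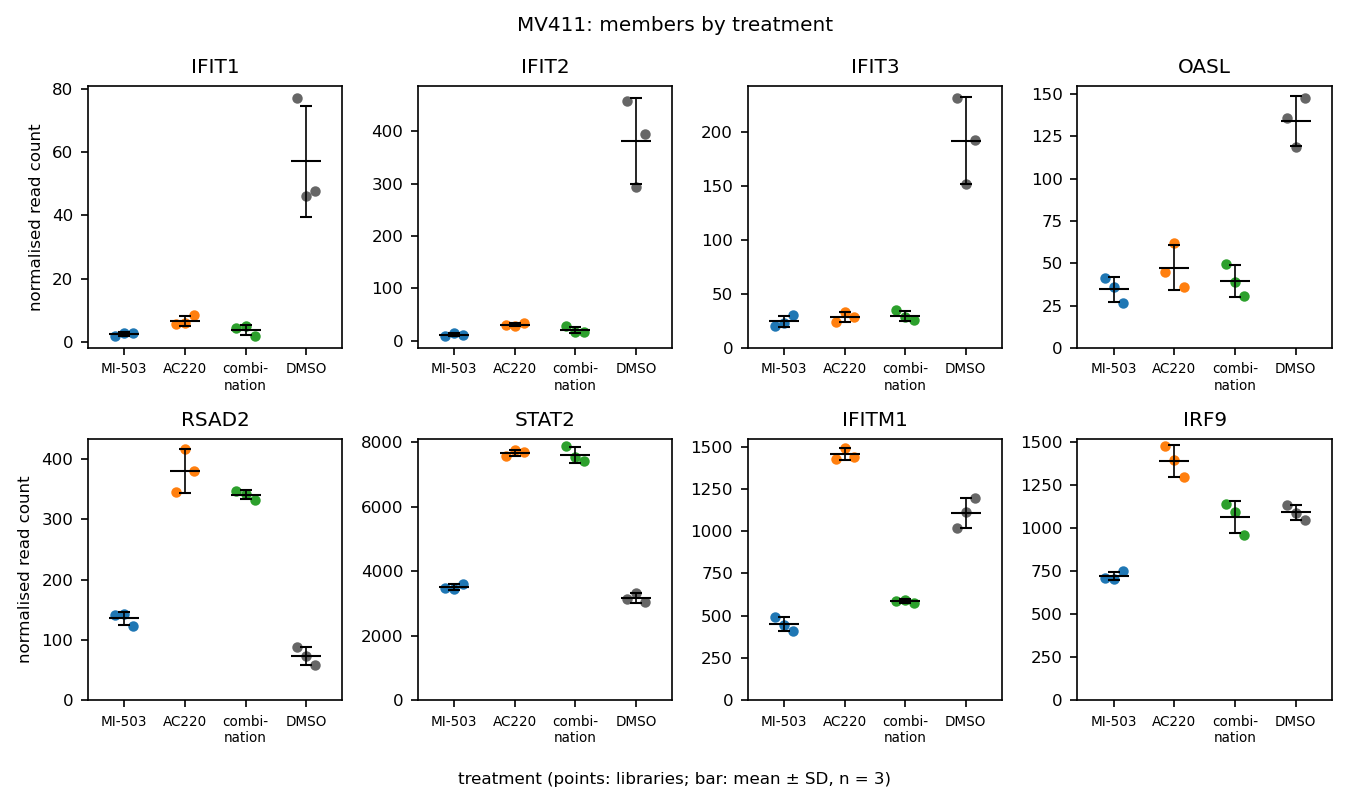
Normalised read counts of 8 genes in the 12 MV411 libraries, by treatment, with the mean and SD of 3 libraries. IFIT1, IFIT2, IFIT3 and OASL are low in the 9 treated libraries and high with DMSO, whereas RSAD2 and STAT2 are highest with AC220 and the combination, and IFITM1 and IRF9 lie below DMSO with MI-503 and above it with AC220.

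Whether the 2 drugs differed on the list was tested directly, as AC220 over MI-503, a contrast in which the DMSO means take no part. Of 44 genes, 27 were higher with AC220 than with MI-503 and 7 were lower, a called share of 77.3% against 68.3% of all genes (33.8% higher and 34.5% lower). The largest gaps included IFI44 at 2.15 ± 0.43, IFITM1 at 1.69 ± 0.07, RSAD2 at 1.47 ± 0.12, IFI16 at 1.45 ± 0.08, OAS1 at 1.37 ± 0.13 and IFIT2 at 1.36 ± 0.21. The gap of IFI44 rests on few reads, 59 over the AC220 group and 11 over MI-503. From these it was 5.26-fold (95% interval 2.74 to 11.1, counting error only). IFITM1 had 1426, 1493 and 1441 counts with AC220 and 491, 446 and 412 with MI-503, with 1016, 1110 and 1196 in DMSO between them. RSAD2 (viperin), an enzyme that makes a chain-terminating nucleotide, had 345, 416 and 379 counts with AC220 and 141, 143 and 124 with MI-503, all above the 87.6, 73.3 and 58.6 of DMSO. OAS1, which makes the second messenger that activates RNase L, had 114, 143 and 136 counts with AC220 and 48.1, 54.6 and 47.7 with MI-503, and DMSO again lay between (69.5, 77.3 and 71.3). IFITM1 and OAS1 therefore fell below DMSO with MI-503 and rose above it with AC220, while RSAD2 rose with both.

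Besides IFITM1, OAS1, IRF7 and IRF9, the genes called lower with MI-503 and higher with AC220 against their shared DMSO libraries were IFITM2, OAS2, SAMD9 and MX1. OAS2 changed by −0.80 ± 0.10 with MI-503 and 0.54 ± 0.10 with AC220, and SAMD9, a restriction factor of poxviruses, by −0.41 ± 0.06 and 0.62 ± 0.06. MX1, a GTPase that traps influenza virus, changed by −0.44 ± 0.16 and 0.71 ± 0.16, but its fall with MI-503 did not pass without DMSO replicate 1 (−0.369), DMSO replicate 2 (−0.403) or MI-503 replicate 3 (−0.370). The reverse split was seen in HERC5, the ligase that attaches ISG15 to proteins. It had 188, 219 and 208 counts with MI-503, against 110, 119 and 121 with DMSO, a rise of 0.80 ± 0.11. With AC220 it had 88.3, 73.6 and 89.2, a fall of 0.48 on the log2 scale.

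GBP4 and BST2 also stood higher with MI-503 than with AC220. GBP4 had 159, 183 and 166 counts with AC220 and 389, 343 and 397 with MI-503, against 134, 133 and 143 with DMSO. BST2 (tetherin), which holds budding virus at the cell surface, had 2876, 2954 and 2849 with AC220 and 4768, 4735 and 4972 with MI-503, against 2984, 3006 and 3092 with DMSO. AC220 over MI-503 was −1.15 ± 0.09 for GBP4 and −0.74 ± 0.04 for BST2, and the AC220 change of BST2 against DMSO, −0.07 ± 0.04, did not pass. Treatment lasted 3 days for MI-503 and 24 hours for AC220, and drug and time cannot be told apart. The summed level of 5 myeloid markers (CD33, LYZ, MPO, CSF1R and SPI1, none at 0) also moved. It ran from 7200 to 7570 RPM with MI-503, 2770 to 3010 with AC220, 7740 to 7910 with the combination and 1580 to 1660 with DMSO. LYZ, the lysozyme gene, made up most of that sum, and the other 4 summed to 488 to 518 RPM with MI-503, 613 to 637 with AC220, 721 to 787 with the combination and 416 to 434 with DMSO. The 5 did not move alike. All 5 rose with MI-503, CD33, LYZ and CSF1R rose with AC220 while MPO fell (−0.37 ± 0.11) and SPI1 did not pass (−0.04 ± 0.06), and with the combination 4 rose and MPO did not pass (−0.23 ± 0.11). CSF1R, a growth factor receptor of monocytes, was higher with AC220 (a mean of 292 RPM) than with MI-503 (164 RPM), opposite to the sum. Their part in these changes was not tested.

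**Figure D3:**
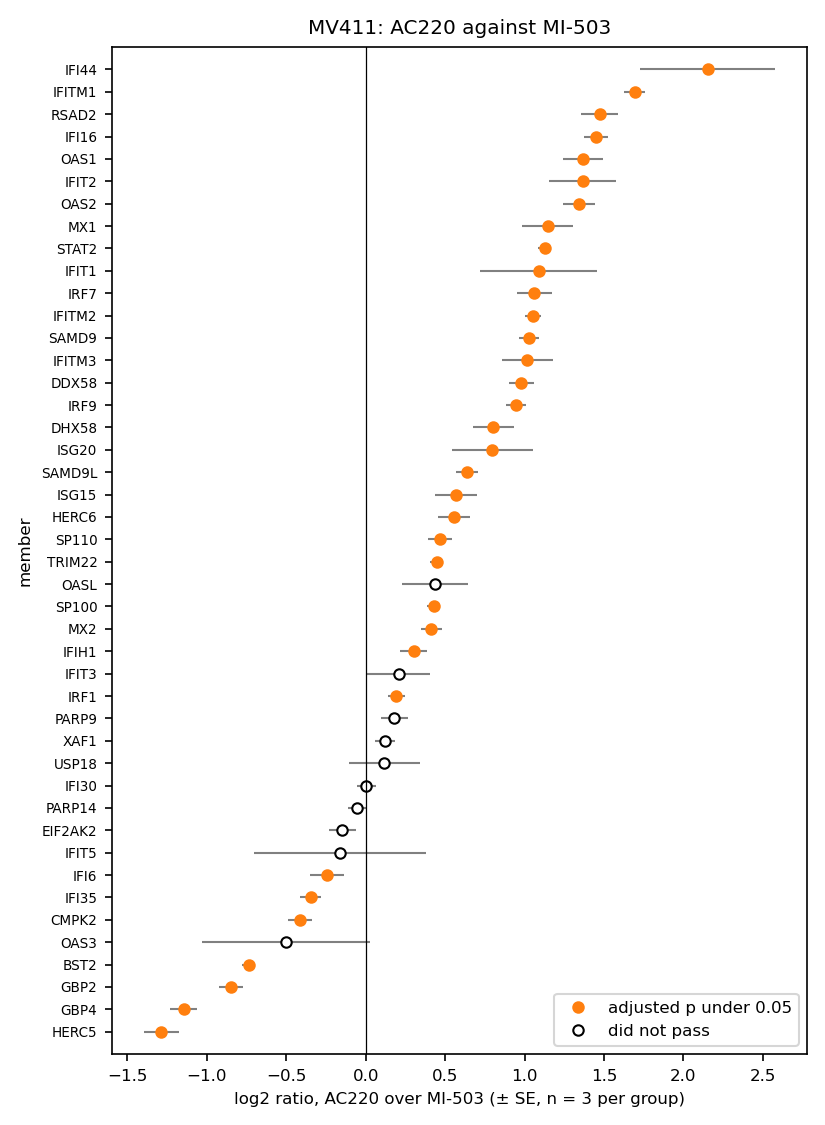
Log2 ratio of AC220 over MI-503 in MV411 for the 44 tested genes, with standard errors, ordered by size. Filled points passed. Of these, 27 lie right of 0, led by IFI44, which had few reads, and by IFITM1. The other 7 lie left, with HERC5, GBP4 and GBP2 at the bottom.

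Adding the second drug changed the list unevenly. Set against MI-503 alone, the combination had 28 genes higher and 7 lower (79.5%, all genes 68.5%, with 34.9% higher and 33.6% lower). Set against AC220 alone, it had 11 higher and 12 lower (52.3%, all genes 55.5%, with 27.4% higher and 28.1% lower). Without combination replicate 1, 3 of the lower calls against MI-503 were left. IFI30 (GILT), a lysosomal thiol reductase that prepares antigens, had 4885, 4487 and 4164 counts with the combination, 1624, 1621 and 1853 counts with MI-503, 1751, 1642 and 1710 counts with AC220, against 1354, 1459 and 1332 with DMSO. Either drug alone gave 0.30 ± 0.06, while the combination gave 1.71 ± 0.06, and all 3 combination libraries lay above the other 9. The reverse was seen for IFITM1, where the combination (590, 593 and 574) stayed below DMSO at −0.92 ± 0.07 and lay −1.31 ± 0.07 from AC220 alone.

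The interaction, which is the combination change minus the sum of the 2 single changes, passed for 19 of 44 genes (43.2%, all genes 42.5%, with 20.9% above and 21.6% below), 8 above the sum and 11 below it. Of the 8 above, 3 are IFIT genes for which the test says nothing. The single falls of IFIT1 add up to less than 0 counts, and those of IFIT2 and IFIT3 would leave 0.0356 and 2.86 counts, under the limit of 3. A combination level above the sum was therefore set by the floor for IFIT1 and IFIT2 (interaction 3.27 ± 0.52 and 4.32 ± 0.30), and for IFIT3 (2.98 ± 0.28) the sum lies too low to be measured. Of the 38 genes whose sum lies above the limit, 5 were above the sum and 11 below it. OASL at 1.70 ± 0.29 and GBP2 at 1.48 ± 0.11 also fell with each treatment, and with the combination by less than the sum. IFI30 was different, its 1.11 ± 0.08 being a rise beyond the sum. Below the sum were RSAD2 at −1.05 ± 0.17, SAMD9L at −1.03 ± 0.09, TRIM22 at −0.83 ± 0.05, IFI35 at −0.67 ± 0.09 and PARP14 at −0.67 ± 0.08, each of which rose with either drug alone.

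The remaining MV411 genes can be given by role. The 4 PARP and nuclear body genes (PARP9, PARP14, SP100 and SP110) rose with each of the 3 treatments, between 0.17 and 1.35. The same 3 treatments raised SAMD9L, TRIM22, MX2 and IFI35 as well, with SAMD9L at 1.40 ± 0.07 and MX2 at 0.85 ± 0.07 with AC220. IFI16 rose with AC220 (1.35 ± 0.08) and the combination (1.08 ± 0.08), and its −0.10 ± 0.08 with MI-503 did not pass. ISG20, an RNA-degrading exonuclease, followed that pattern with 1.04 ± 0.25 with AC220 and 0.94 ± 0.25 with the combination. ISG15 itself rose with AC220 (0.43 ± 0.13), with 148, 125 and 130 counts with AC220, against 97.1, 116 and 86.0 with DMSO. EIF2AK2 (PKR), the kinase that stops translation on double-stranded RNA, passed with none of the 3, its changes lying between −0.06 and 0.12, and XAF1 and OAS3 did not pass either. USP18, which removes ISG15 from proteins, had 57 reads with the combination, against 141 with DMSO, and that fall passed; its falls with MI-503 and with AC220 did not pass without DMSO replicate 1 (−0.497 and −0.383). With AC220 the fall of USP18 also did not pass without AC220 replicate 1 (−0.553), 2 (−0.532) or 3 (−0.558).

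In MOLM13, MI-503 raised GBP2, the MX genes, IFI6 and XAF1, and of the IFIT genes IFIT2 alone passed, as a fall. Of 41 tested genes, 19 rose and 11 fell (73.2%, all genes 59.9%, with 29.9% higher and 29.9% lower), with a median change of 0.20. On the submitters' scale, where the median gene lies lower, 6 rose and 20 fell, against 6.74% higher and 76.7% lower over all genes. The 6 that rose on either scale were GBP2, MX1, MX2, IFI6, XAF1 and BST2. All 11 lower calls passed on the submitters' scale too, but a scale that moves the median gene down cannot test a fall. With other settings or a library left out, 8 of the 11 held, while DDX58, ISG15 and SAMD9 each lost the call at least 1 time. GBP2 had 491, 598 and 598 counts with MI-503, against 108, 136 and 142 with DMSO, a change of 2.12 ± 0.10. MX1 had 49.1, 40.4 and 46.0 with MI-503, against 16.7, 11.8 and 15.1 with DMSO, and MX2 had 220, 200 and 199 with MI-503, against 73.4, 74.6 and 76.6 with DMSO. Groups did not overlap for any of the 3, and the MX changes were 1.58 ± 0.22 and 1.45 ± 0.10. IFI6, a mitochondrial and endoplasmic reticulum protein that opposes cell death, rose by 1.45 ± 0.22, from few reads (152 with MI-503, 57 with DMSO). XAF1, which counters inhibitors of apoptosis, had 2904, 3257 and 3180 with MI-503, against 1368, 1489 and 1468 with DMSO (1.11 ± 0.04).

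Among the genes that fell in MOLM13, OAS1 had 19.1, 36.1 and 19.6 counts with MI-503, against 80.8, 82.4 and 96.8 with DMSO (−1.82 ± 0.22). OAS3, the synthetase that makes the longest oligoadenylates, had 85.2, 71.1 and 82.2 with MI-503, against 175, 164 and 189 with DMSO (−1.14 ± 0.11). OAS2, of the same family, rose by 0.46 ± 0.14, but on the submitters' scale it lay at −0.0661, and the call was lost without DMSO replicate 1 (0.353, adjusted p = 0.0590). IFI16 fell by 0.74 on the log2 scale, IRF7 by 0.62 and IRF1 by 0.34. IFIT2 fell too, with 16.0, 23.0 and 27.4 counts with MI-503, against 35.3, 38.3 and 38.3 with DMSO (−0.76 ± 0.22). IFIT1, IFIT3 and IFIT5 lay at −0.11 ± 0.31, 0.20 ± 0.16 and −0.14 ± 0.12, none passing. ISG15 fell by 0.70 on the log2 scale (30.1, 26.2 and 25.4 counts with MI-503, 56.7, 40.2 and 39.3 with DMSO), a call lost by a small margin without DMSO replicate 1 (−0.533, adjusted p = 0.0508). IFI27, IFI44L, GBP1, GBP4, ISG20 and OASL had too few reads to be tested.

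In OCI-AML3 most of the list fell with MI-503, while ISG15, IFITM3, IFI30, GBP2 and IFIH1 rose. Of 46 tested genes, 13 rose and 26 fell (84.8%, all genes 65.6%, with 32.9% higher and 32.8% lower), with a median change of −0.23. On the submitters' scale 5 rose and 14 fell, against 3.85% higher and 6.82% lower over all genes, and the 5 that rose on either scale were IFITM3, GBP2, IFIH1, ISG15 and IFI30. IFI44L had 1.31, 0 and 0.944 counts with MI-503, against 74.9, 54.1 and 71.6 with DMSO. In reads, that is 2 against 218, or 92.3-fold lower (95% interval 25.3 to 767, counting error only). IFI44L and IFI44 passed the filter on low values only through the DMSO group, and without them 24 of 44 genes fell. IFI27, a mitochondrial protein that is among the strongest interferon-induced genes, had 3.93, 7.27 and 11.3 counts with MI-503, against 57.4, 30.0 and 31.8 with DMSO (−2.29 ± 0.36). Its MI-503 libraries would not have passed that filter without those of DMSO. The fall of IFI27 was thus selected for and is a description, though it is counted among the 24. IFIT2 had 31.4, 27.0 and 22.7 counts with MI-503, against 105, 91.6 and 90.5 with DMSO (−1.80 ± 0.16), and IFIT1 fell by 1.05 on the log2 scale, whereas IFIT3 (−0.12 ± 0.10) and IFIT5 (0.01 ± 0.09) did not pass.

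IRF7, OAS1, OAS2 and MX1 fell in OCI-AML3 on either scale, while OAS3 (−0.23 ± 0.10) and MX2 (0.04 ± 0.03) did not pass. IRF7 had 473, 555 and 507 counts with MI-503, against 1259, 1166 and 1198 with DMSO (−1.24 ± 0.06). OAS2 had 282, 276 and 265 with MI-503, against 782, 638 and 685 with DMSO (−1.35 ± 0.08). MX1 had 86.4, 88.3 and 93.5 with MI-503, against 201, 180 and 166 with DMSO (−1.01 ± 0.10). MX1 thus lay lower with MI-503 here and higher with it in MOLM13, with no overlap between the groups in either line. OAS1 (−1.12 ± 0.13), RSAD2 (−0.92 ± 0.08), OASL (−0.73 ± 0.18), SAMD9 (−0.69 ± 0.03) and DDX58 (−0.62 ± 0.06) fell as well, also on either scale. Against this, ISG15 had 378, 511 and 478 counts with MI-503 and 238, 230 and 240 with DMSO (0.94 ± 0.10). IFITM3, which blocks entry from endosomes, had 495, 531 and 534 with MI-503, against 291, 260 and 278 with DMSO (0.91 ± 0.07). IFI30 had 1881, 1932 and 1977 with MI-503, against 612, 591 and 669 with DMSO (1.63 ± 0.05), and IFIH1 and GBP2 rose by 1.06 ± 0.05 and 1.21 ± 0.08. GBP1, untested, had 17 reads with MI-503 and 47 with DMSO. The 5 myeloid markers summed to 808 to 944 RPM with MI-503, against 307 to 317 with DMSO in MOLM13, and to 1050 to 1070 with MI-503, against 734 to 742 with DMSO in OCI-AML3. In MOLM13 all 5 rose, but the rises of CD33 (a mean of 1284 counts against 1124) and SPI1 (1329 against 1164) were small. The SPI1 libraries overlapped between the groups. Both rises are relative to the median gene, which fell on the submitters' scale. In OCI-AML3 the rise of the sum was that of LYZ, a mean of 848 RPM with MI-503 against 518 with DMSO, and without LYZ the sums were 208 to 210 RPM with MI-503 and 214 to 225 with DMSO. There CD33 rose as well (0.31 ± 0.03), while CSF1R (−2.46 ± 0.11) and SPI1 (−0.21 ± 0.03) fell and MPO did not pass (−0.29 ± 0.15). Their part in these changes was not tested.

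**Figure D4:**
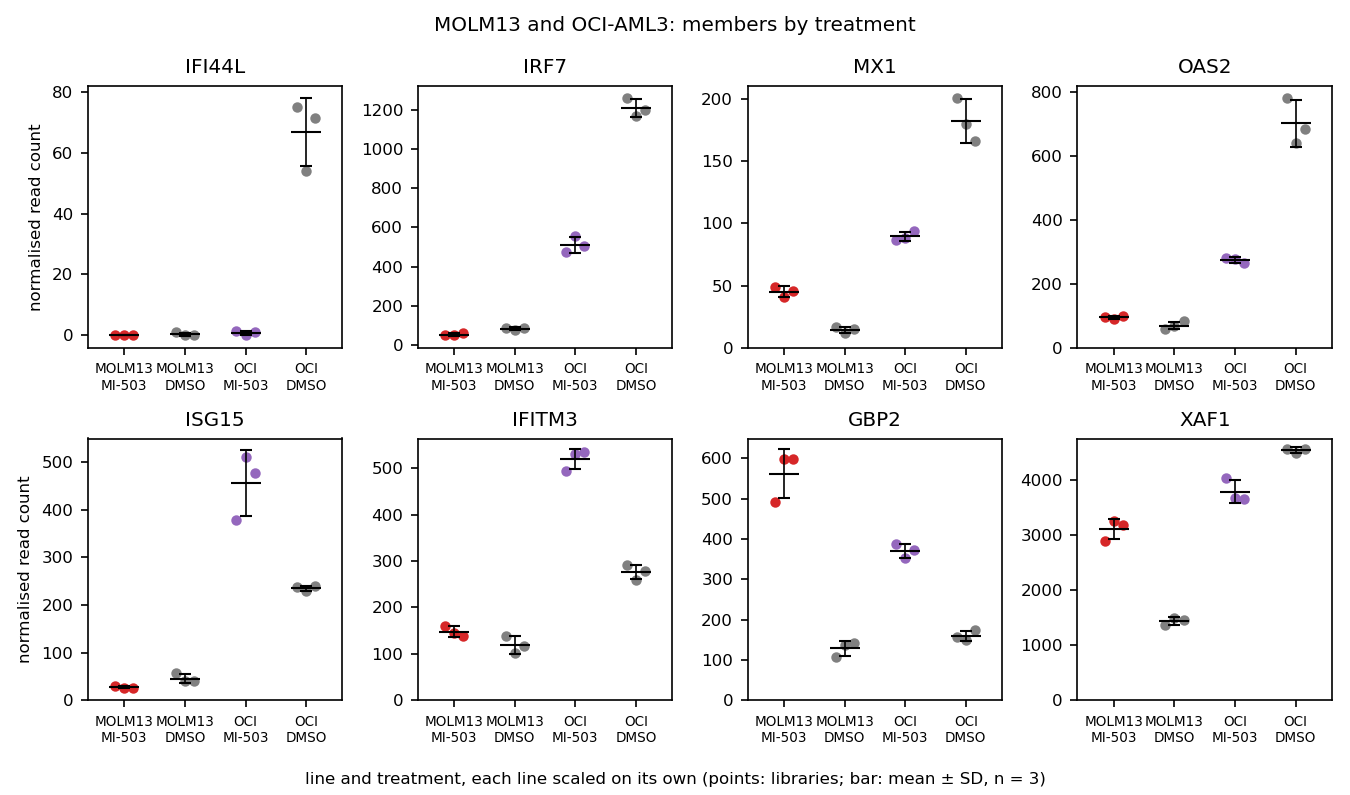
Normalised read counts of 8 genes in the MOLM13 and OCI-AML3 libraries, MI-503 left of DMSO in each line, with mean and SD of 3 libraries. MX1 and XAF1 are higher with MI-503 in MOLM13 and lower in OCI-AML3, while ISG15 is lower in MOLM13 and higher in OCI-AML3. The fall of XAF1 in OCI-AML3 does not pass on the submitters' scale. Levels are not comparable between the lines.

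Across the 3 lines 41 genes were tested in each. How many of all genes share the patterns named here was not counted, so they describe single genes and not a trait of the list. IFI30, IFIH1, HERC5 and BST2 rose with MI-503 in all 3, although in MOLM13 the rise of IFI30 did not pass on the submitters' scale, IFIH1 and HERC5 lay at −0.119 and −0.0117 on it, and the rises of HERC5 and BST2 in OCI-AML3 did not pass on it. IRF7, IFIT2, OAS1 and SAMD9 fell in all 3. The fall of SAMD9 in MOLM13 did not pass without DMSO replicate 2 (−0.0774) or 3 (−0.125) or without MI-503 replicate 1 (−0.0828) or 2 (−0.108). STAT2, IFI6, SP100, TRIM22 and SAMD9L rose in MV411 and MOLM13 and fell in OCI-AML3, with STAT2, TRIM22 and SAMD9L turning negative on the submitters' scale in MOLM13 (−0.333, −0.135 and −0.0204), the rise of SP100 there not passing on it, and none of the 5 falls in OCI-AML3 passing on it. IRF1 did the reverse, falling in MV411 and MOLM13 and rising in OCI-AML3 (0.50 ± 0.04), where the rise did not pass on that scale. IRF9, IFI44, IFITM1, MX1, OAS2 and GBP2 fell in MV411 and rose in MOLM13, of which IRF9, IFITM1 and OAS2 turned negative in MOLM13 on the submitters' scale (−0.248, −0.101 and −0.0661) and IFI44 did not pass on it. In MOLM13 the rise of IRF9 did not pass without DMSO replicate 3 (0.188) or MI-503 replicate 2 (0.211). That of IFITM1 did not pass without DMSO replicate 3 (0.353) or MI-503 replicate 1 (0.256), and that of OAS2 not without DMSO replicate 1 (0.353).

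The difference of the MI-503 effect between lines was tested in 1 fit over 24 libraries. The effect in MV411 was above that in MOLM13 for 11 of 41 genes and below it for 17 (68.3%, all genes 56.6%, with 26.6% above and 30.0% below). Set against OCI-AML3, the MV411 effect was above for 22 and below for 12 (82.9%, all genes 61.4%, with 30.6% above and 30.8% below), and the MOLM13 effect was above that in OCI-AML3 for 22 and below it for 9 (75.6%, all genes 58.0%, with 30.7% above and 27.3% below). IFIT1 and IFIT5 in MV411 and IFI44 in OCI-AML3 passed the filter only through DMSO, so their differences were selected for. Leaving out those of the lines compared, the counts above and below were 11 and 15 of 39, 22 and 10 of 38, and 21 and 9 of 40. On the submitters' scale the first of these comparisons had 21 above and 11 below (all genes 55.8% and 5.67%). The MV411 effect was there above that in OCI-AML3 for 18 and below for 11 (all genes 21.4% and 8.9%), and the MOLM13 effect for 10 and 11 (all genes 6.88% and 37.7%). Of the differences named next, all had the same sign and passed on either scale. IFIT2 and IFIT3 fell further in MV411, where the effect minus that in MOLM13 was −4.18 ± 0.31 for IFIT2 and −3.11 ± 0.24 for IFIT3. Minus the effect in OCI-AML3, the values were −3.14 ± 0.31 and −2.79 ± 0.24. For IFIT1, whose fall in MV411 was selected for, the differences of −3.87 and −2.92 are a description. GBP2 differed by −2.93 ± 0.14 from MOLM13 and by −2.02 ± 0.14 from OCI-AML3, as it fell in MV411 and rose in both other lines. MX1 differed by 2.60 ± 0.23 between MOLM13 and OCI-AML3, OAS2 by 1.81 ± 0.15, IFI6 by 1.85 ± 0.19 and ISG15 by −1.64 ± 0.21. RSAD2 differed by 1.82 ± 0.16 between MV411 and OCI-AML3.

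**Figure D5:**
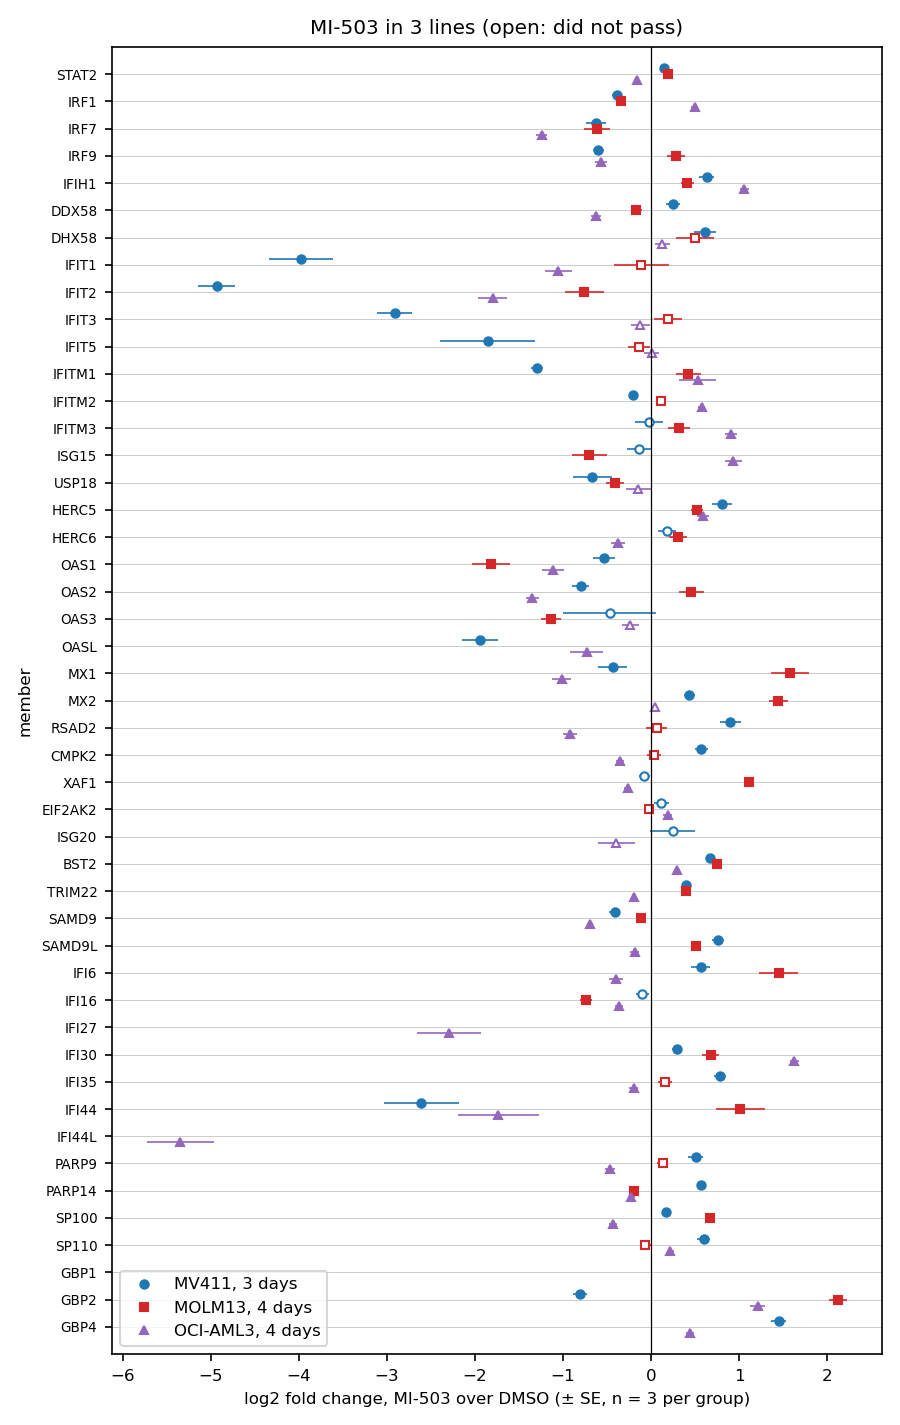
Log2 fold change of MI-503 over DMSO for each gene in MV411 (circles), MOLM13 (squares) and OCI-AML3 (triangles), with standard errors; open symbols did not pass. The circles of IFIT1, IFIT2 and IFIT3 lie far left of the other lines. Squares and triangles fall on opposite sides of 0 for MX1, OAS2 and XAF1. On the submitters' scale OAS2 in MOLM13 lies at −0.0661, and the fall of XAF1 in OCI-AML3 does not pass.

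The rest of the pathway was read from lists chosen by role. Of 7 interferon genes, IFNA1, IFNA2, IFNG, IFNL1 and IFNE had at most 3 reads in any group. IFNB1 had 0 reads with MI-503, 1 with AC220 and 0 with the combination, against 7 with DMSO in MV411, at most 4 in each OCI-AML3 group and 0 in MOLM13. With 0 reads replaced by a limit of 3 over the group, IFNB1 was 2.32-fold lower with MI-503 and 2.16-fold lower with the combination. These values leave out the counting error of the 7 DMSO reads, so neither is a lower bound. With AC220 it was 7.1-fold lower (95% interval 0.912 to 320, counting error only), an interval that includes no change. IFNK, tested in OCI-AML3 alone, did not pass (−0.26 ± 0.35). Of 8 tested receptors and kinases, MI-503 raised 3 and lowered 2 in MV411, AC220 raised 5 and lowered 3, and the combination raised 5 and lowered 2, with JAK2 at 0.87 ± 0.06 with AC220. The shares called were 62.5%, 100% and 87.5%, against 60.6%, 74.9% and 79.4% of all genes. In MOLM13 all 8 rose, between 0.14 and 0.73 (all genes called 59.9%), yet on the submitters' scale none rose and 2 fell, against 76.7% of all genes lower. In OCI-AML3 1 rose and 5 fell, or 75%, against 65.6% of all genes, and on the submitters' scale 0 and 1.

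UBE2L6, the enzyme that carries ISG15 to HERC5, rose in each of the 5 drug comparisons and on either scale. It had 867, 834 and 829 counts with MI-503, 413, 477 and 435 with AC220, 927, 970 and 942 with the combination, and 305, 310 and 301 with DMSO in MV411. The rises were 1.46 ± 0.06, 0.53 ± 0.06 and 1.63 ± 0.06 in MV411, 1.32 ± 0.11 in MOLM13 and 1.21 ± 0.04 in OCI-AML3. The STING gene TMEM173, an adaptor of DNA sensing, rose by 0.73 ± 0.04, 1.14 ± 0.04 and 1.23 ± 0.04 in MV411. SOCS1 and SOCS3, which restrain JAK signalling, fell with AC220 by 1.16 and 1.77 on the log2 scale. HLA-B, which presents antigen and whose reads can be shared with related genes, rose by 0.79 ± 0.05 with MI-503, 0.61 ± 0.05 with AC220, 1.21 ± 0.05 with the combination and 0.98 ± 0.05 in MOLM13. TAP1 and PSMB9, which prepare and carry peptides for presentation, had at most 7 and 9 reads in any group. The aligner and the counting program are not given, and whether so few reads reflect low expression was not tested.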

How the data were processed

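The deposited values are called signal here: per the labels' descriptions the tables were named for DESeq and the ERCC spike-in, and per the submitters' processing notes DESeq version 2 and the build hg38 were used. The aligner, the counting program and the strand setting are not given in the sources used here. In each of the 24 libraries all deposited values were whole reads divided by 1 factor, within a tolerance of 0.001. In MV411 these factors equalled median-of-ratios factors; in MOLM13 and OCI-AML3 they differed by 0.797 to 1.31 times. Each table was therefore rescaled by median-of-ratios factors.

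Genes whose rescaled value reached 10 in 3 or more libraries were tested with limma 3.58.1 on log2(value + 1) with a variance trend, two-sided, with Benjamini-Hochberg adjustment over all genes and calls at an adjusted p under 0.05. A single model held the 12 libraries of MV411; MOLM13 and OCI-AML3 had 1 model each, and differences between lines came from 1 fit of 8 group means. The fit was tested on simulated data. Alternatives were the deposited scale, TMM factors, a pseudocount of 8, no filter, a minimum of 50, edgeR 4.0.16 and DESeq2 1.42.0 on the recovered reads, no trend, a replicate block, only the 2 groups compared, and each library left out.

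edgeR called 8819, 10866 and 11462 genes for MI-503, AC220 and the combination in MV411, 8053 in MOLM13 and 10343 in OCI-AML3. The labels call the libraries biological triplicates and do not say how cultures were separated, so p-values measure the spread between these libraries. No pair of replicates agreed within counting noise (chi-square per degree of freedom 1.59 to 9.41 over 24 pairs). The members and lists were chosen with earlier results of these data known. All 47 members could be named; full values went to those that passed with the largest changes, up to 6 each way per comparison, with a group mean of 50 or more. Promoters and positions are from RefSeq (GRCh38.p14). Genes that share 50-base stretches with other transcripts include IRF9, IFI30 (39.5%), IFITM3 (35.2%), XAF1 (34.7%), IFITM2 (34.3%), IFITM1 (32%), USP18 (23.4%) and IRF1 (22%). Some results on other genes of the pathway are not reported here.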

Additional observations from a re-analysis of the deposited data

Results flagged for a closer look

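In MV411 the combination departed from the sum of the single drug effects (limma interaction, adjusted p under 0.05) by 1.70 on the log2 scale for OASL, 1.48 for GBP2 and 1.11 for IFI30. Below the sum, the interaction was −1.05 for RSAD2, −1.03 for SAMD9L, −0.83 for TRIM22, −0.67 for IFI35, −0.67 for PARP14 and −0.37 for MX2.

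The MI-503 effect in MV411 minus that in MOLM13 passed for OAS1 at 1.29, RSAD2 at 0.84, PARP14 at 0.76, SP110 at 0.66, IFI16 at 0.64 and IFI35 at 0.63. It was negative for IFIT2 at −4.18, IFIT3 at −3.11, GBP2 at −2.93, MX1 at −2.02 and IFITM1 at −1.72. The MV411 effect minus that in OCI-AML3 passed for RSAD2 at 1.82, IFI35 at 0.98, PARP9 at 0.97, IFI6 at 0.96, SAMD9L at 0.95 and CMPK2 at 0.92. On the negative side were IFIT2 at −3.14, IFIT3 at −2.79, GBP2 at −2.02 and IFITM1 at −1.83.

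The MOLM13 effect minus that in OCI-AML3 passed for MX1 at 2.60, IFI6 at 1.85, OAS2 at 1.81, MX2 at 1.41, XAF1 at 1.37 and SP100 at 1.10. It was negative for ISG15 at −1.64, IFI30 at −0.95, IRF1 at −0.83, OAS1 at −0.70, IFIH1 at −0.65 and IFITM3 at −0.59. OAS1 did not pass without MOLM13 MI-503 replicate 1 (−0.544) or 3 (−0.562), and IFITM3 not without MOLM13 DMSO replicate 1 (−0.473).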

How the results depend on the processing

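The submitters' own scaling changed most. On it the median gene moved by −0.541 with MI-503 in MOLM13 and −0.161 in OCI-AML3, and calls over all genes numbered 11173 (903 higher, 10270 lower) and 1676 (605 higher, 1071 lower), against 8015 and 10294 here. For the 3 differences between lines they numbered 7772 (7056 higher, 716 lower), 3826 (2701 and 1125) and 5638 (869 and 4769), against 7153, 7760 and 7330. Of the 47 genes, 6 were higher and 20 lower in MOLM13, 5 higher and 14 lower in OCI-AML3, 21 higher and 11 lower for MV411 minus MOLM13, and 10 higher for MOLM13 minus OCI-AML3. Signs turned in MOLM13 for HERC5 (−0.0117), SAMD9L (−0.0204), OAS2 (−0.0661), IFITM1 (−0.101), IFIH1 (−0.119), TRIM22 (−0.135), IFITM3 (−0.209), HERC6 (−0.223), IRF9 (−0.248), STAT2 (−0.333), IFI35 (−0.373), PARP9 (−0.399), IFITM2 (−0.421), RSAD2 (−0.464) and CMPK2 (−0.495). For MV411 minus MOLM13 they turned for SP100 (0.0333), IFI30 (0.148), IFITM2 (0.222), SAMD9 (0.232), BST2 (0.455), STAT2 (0.480), IRF1 (0.484) and IRF7 (0.519), and for MOLM13 minus OCI-AML3 for STAT2 (−0.0139) and IFI35 (−0.0154). Which scaling is nearer to RNA per cell was not tested.

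With a minimum value of 50, where fewer genes are tested, lower calls numbered 5 for the combination over DMSO (9 before), 9 for MV411 minus MOLM13 (17 before) and 6 for MV411 minus OCI-AML3 (12 before). For the combination over MI-503 lower calls numbered 4 with DESeq2 and 4 with only the 2 groups fitted (7 before); the cause was not tested. Leaving out each library gave 3 to 7 lower and 26 to 27 higher for that comparison. Against DMSO it gave 18 to 19 higher and 13 to 17 lower with MI-503, 28 to 30 and 6 to 9 with AC220, and 24 to 25 and 7 to 10 with the combination. It gave 17 to 19 and 9 to 10 in MOLM13, and 12 to 13 and 24 to 27 in OCI-AML3. Over single genes it ended a call 120 times and made one 52 times, against 3870 with no change.

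Replicate numbers did not pair the samples: the deviations of same-numbered libraries correlated by −0.0814 to 0.121, over 0.1 in 1 of 24 pairs. The replicate block gave 8701 calls over all genes for MI-503 in MV411 (8734 without it) and 8223 in MOLM13 (8015 without it). Among the 47 genes it made 9 calls and ended 1, IFI6 in AC220 over MI-503 (−0.244, adjusted p = 0.0565 with limma). edgeR ended 5 calls and made 9, and DESeq2 ended 19 and made 3. Genes with few reads, such as IFIT5 and IFI44L, limit how finely a fall can be measured.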

Other observations

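Among other genes of the pathway lists, TLR8, an endosomal sensor of RNA, had 51.1, 66.2 and 62.3 normalised counts with MI-503, 37.4, 41.8 and 68.5 with AC220, 266, 297 and 329 with the combination, and 10.5, 13.0 and 13.7 with DMSO in MV411. In OCI-AML3 TLR8 had 60.2, 80.0 and 63.3 with MI-503, against 145, 156 and 132 with DMSO. By limma the changes were 2.18 ± 0.19, 1.86 ± 0.19 and 4.48 ± 0.19 in MV411 and −1.09 ± 0.13 in OCI-AML3, all with adjusted p under 0.05. TLR7, its neighbour in function, had 227, 299 and 288 with the combination, against 66.6, 49.2 and 64.5 with DMSO. IRF5, a factor downstream of these receptors, rose by 0.54 ± 0.05 with MI-503, 0.68 ± 0.05 with AC220 and 1.11 ± 0.05 with the combination in MV411 and by 0.96 ± 0.07 in MOLM13.

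NLRC5, the activator of class I genes, had 3115, 3048 and 3155 counts with MI-503, 2104, 2259 and 2128 with AC220, 4444, 4058 and 3819 with the combination, and 1800, 1817 and 1812 with DMSO in MV411, with all 9 treated libraries above DMSO. UBA7, the enzyme that activates ISG15, rose by 0.58 ± 0.06 with MI-503, 1.24 ± 0.06 with AC220 and 1.33 ± 0.06 with the combination.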
